A study of Danio rerio with 12 samples.

Results

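The 7 genes described here, mt-nd1, mt-nd2, mt-nd3, mt-nd4l, mt-nd4, mt-nd5 and mt-nd6, are the subunits of respiratory complex I that zebrafish (Danio rerio) mitochondria encode themselves. They were taken by name from the deposited expression table, where all 7 lie on the mitochondrial chromosome (MT) and are annotated as protein-coding. They are 7 of the 400 genes that hold values, in a table of 32520 genes. Cardiac tissue came from 4 groups of 3 biological replicates: Tg(myl7:ATF3) fish at 12 months post-fertilization (mpf), wild-type siblings at 12 mpf, Tg(myl7:ATF3) fish at 4 mpf and wild-type siblings at 4 mpf. The transgene places ATF3, a stress-induced transcription factor, under the myl7 promoter, which is active in heart muscle cells. The labels do not say which allele or founder line was used, or how many hearts went into a replicate. The design asks what ATF3 overexpression in the heart does early and later on. Libraries were made by oligo-dT priming (QuantSeq 3' FWD), so a read lies near the 3' end of a polyadenylated RNA and on its sense strand.

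Complex I, NADH:ubiquinone oxidoreductase, is where electrons from NADH enter the respiratory chain, and it pumps protons across the inner mitochondrial membrane. Its mitochondrially encoded subunits form the core of the membrane arm, and nuclear genes encode the other subunits. Vertebrate mitochondrial DNA is transcribed from both strands into long precursors, which are cut largely at the transfer RNAs that lie between the protein genes. ND6 is the protein gene that vertebrates keep on the other strand from all the rest. Heart muscle is rich in mitochondria, and mitochondrial transcripts are usually abundant in it.

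Levels are given as FPKM, fragments per kilobase of gene scaled for each library, as deposited. With a length chosen for each gene to make its reads whole, every FPKM value corresponded to a whole number of reads within 0.0001 reads. These reads are given where depth matters. The 12 libraries had 133852 to 1092280 reads in the 400 genes. Ribosomal RNA took 18.0% to 41.3% of them at 12 mpf and 82.7% to 90.4% at 4 mpf. At 12 mpf 3 to 9 of the 400 genes were listed at 0 in a library, and at 4 mpf 46 to 193 were. Age and these library properties cannot be told apart here, which touches every age comparison given below. The kit's protocol in the labels names no molecular identifiers, so counting error is all that the floors cover. All 12 listed heart muscle markers and atf3 are in the table but, like 32120 genes in all, carry no value in any library. Neither the tissue label nor the transgene could therefore be checked, and what decided which 400 genes carry values is not known. In bulk tissue, fewer cells of a type and less RNA per cell cannot be told apart.

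On the plus strand lie, in this order, mt-nd1 (ENSDARG00000063895, MT 3803 to 4777), mt-nd2 (ENSDARG00000063899, MT 4993 to 6039), mt-nd3 (ENSDARG00000063914, MT 10590 to 10940), mt-nd4l (ENSDARG00000063916, MT 11009 to 11305), mt-nd4 (ENSDARG00000063917, MT 11299 to 12679) and mt-nd5 (ENSDARG00000063921, MT 12897 to 14717). mt-nd6 (ENSDARG00000063922, MT 14714 to 15232) runs on the minus strand. These are GRCz11 coordinates as the table gives them. mt-nd6 is the 1 protein gene of 13 in the mitochondrial annotation that lies on the minus strand, beside 8 minus-strand and 14 plus-strand tRNA genes. The lengths recovered from the FPKM values matched the whole gene span for 7 of 7. For the 6 plus-strand members this was built in, since the library factors were solved with their spans taken as lengths. Of the members, only mt-nd6 was outside that step.

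The genes are packed end to end. mt-nd1, mt-nd2, mt-nd3 and mt-nd4l each begin at the base after a tRNA gene on their own strand, and mt-nd5 begins 1 base further on. mt-nd4l and mt-nd4 overlap by 7 bases on the same strand, as they share a bicistronic messenger in vertebrates. The annotated 3' ends of mt-nd5 and mt-nd6 overlap by 4 bases on opposite strands. These are ends of gene spans. Where the RNA of either gene ends, and so where its 3' reads lie, was not tested.

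The strand setting of the authors' counting is not stated in any source used here, and it bears on every value below. The kit keeps strand, so counting with the opposite setting would give mt-nd6 the plus-strand RNA across its span and give the other 6 genes minus-strand RNA. Counting without strand would mix both. The genes that carry values often face another gene: of the 321 nuclear protein-coding genes with values, 60.7% overlap a protein-coding gene on the opposite strand, against 12.8% of the 25098 without values. A further 42 of the 400 are annotated as antisense. They make up 10.9% of the nuclear genes with values, against 1.96% for antisense genes among the 32097 without. No heart muscle marker is among the 400. Which setting was used was not tested, so each level below is that of the reads assigned to the named gene, and the strand of the RNA behind it is not known.

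**Figure D1:**
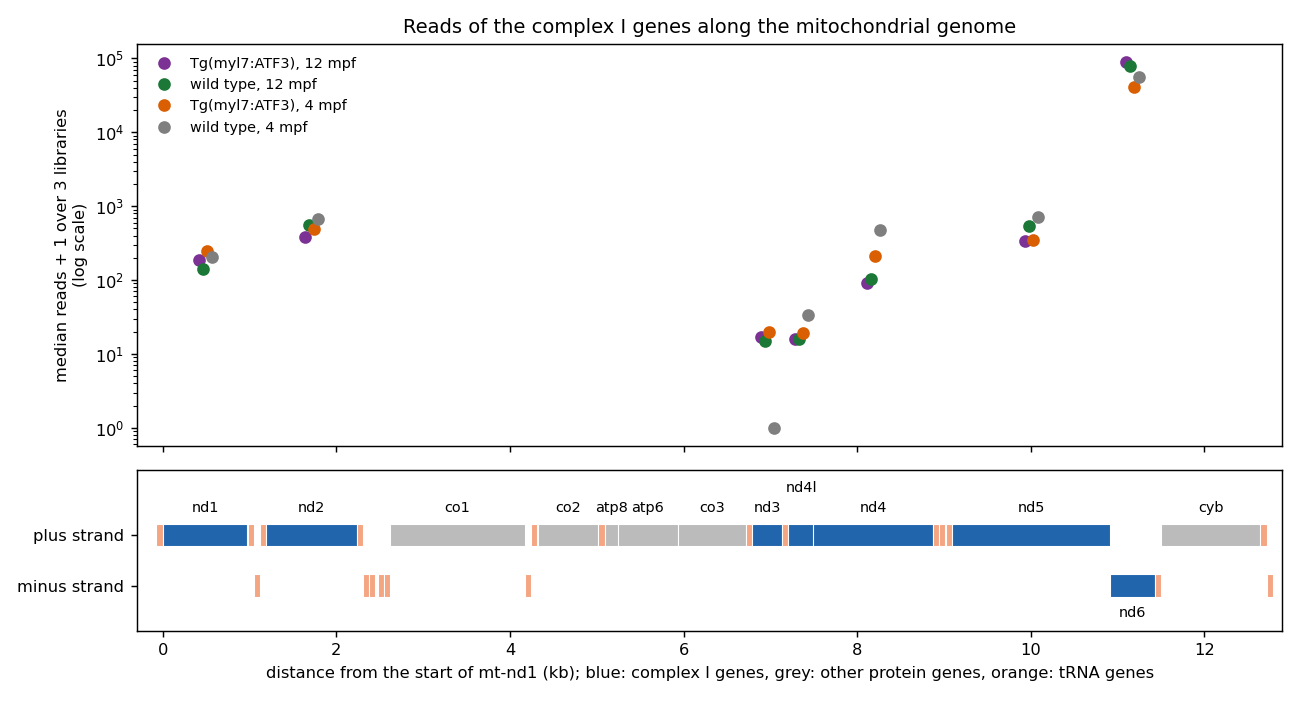
Median reads plus 1 over 3 libraries for each complex I gene (upper panel, log scale, 1 colour per genotype and age) above the gene layout by strand, by distance from the start of mt-nd1 in kb (lower panel). mt-nd6, alone on the minus strand, has group medians of 40603 to 88625 reads, whereas those of the plus-strand genes run from 0 to 720.

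Reads assigned to mt-nd6 outnumbered those of the other members in every library. It had 564185, 349320 and 313902 FPKM in Tg(myl7:ATF3) hearts at 12 mpf, against 620569, 315335 and 428032 FPKM in wild-type hearts at 12 mpf. At 4 mpf it had 143466, 159813 and 93495.7 FPKM in Tg(myl7:ATF3) hearts, against 126245, 197479 and 269985 FPKM in wild-type hearts. The genotypes overlapped at both ages, whereas all 6 libraries of 12 mpf lay above all 6 of 4 mpf. ND6 is a small membrane-arm subunit that in mammals sits beside ND1, ND3 and ND4L.

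mt-nd6 exceeded the next highest member 107-fold to 726-fold in FPKM and 30.4-fold to 360-fold in reads. Its 22133 to 144524 reads per library made up 62.2% to 73.9% of the reads outside rRNA at 12 mpf and 36.3% to 60.5% at 4 mpf. Of the reads in the 12 mitochondrial protein genes that hold values, it took 94.0% to 96.4% at 12 mpf and 60.2% to 88.5% at 4 mpf. Replicates of mt-nd6 varied by 26.1% to 36.3% (coefficient of variation within a group), against 0.318% to 0.513% for counting alone.

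The plus-strand genes lay far lower and held no fixed order, beyond mt-nd2 at or near the top and mt-nd3 and mt-nd4l at or near the bottom. By the median FPKM over 12 libraries, mt-nd2 (871) was followed by mt-nd5 (478), mt-nd1 (450), mt-nd4 (234), mt-nd4l (122) and mt-nd3 (85.5). In FPKM, mt-nd2 was the highest plus-strand member in 11 of 12 libraries. mt-nd5 was highest in replicate 1 of the wild type at 4 mpf. mt-nd1 exceeded mt-nd5 in 6 of 12 libraries in FPKM, and mt-nd3 exceeded mt-nd4l in 6 of 12. mt-nd1 exceeded mt-nd4 in 9 of 12, and mt-nd4 exceeded mt-nd4l in 11 of 12. In reads, mt-nd1 exceeded mt-nd5 in 0 of 12, mt-nd2 exceeded mt-nd5 in 9 and mt-nd3 exceeded mt-nd4l in 8. FPKM divide 3' end reads by gene length, so the order of the genes depends on the unit.

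**Figure D2:**
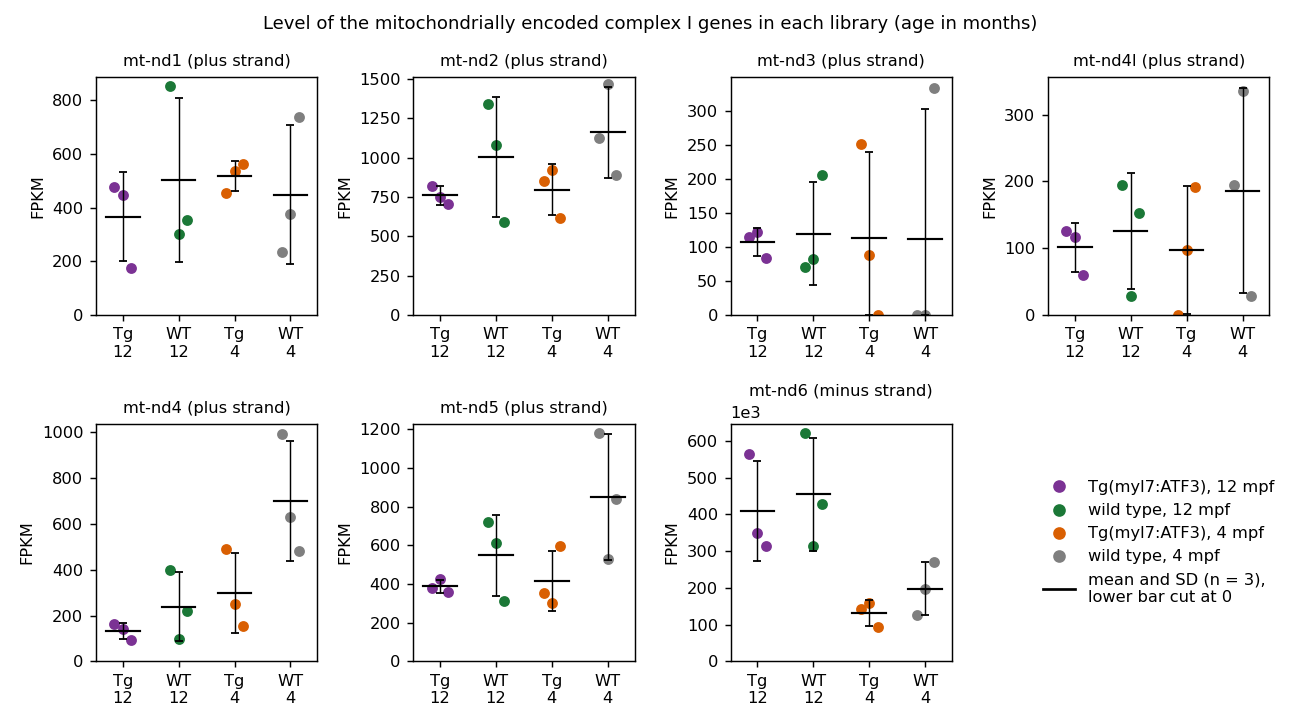
FPKM of each complex I gene in each library (points) with the mean and SD of 3 replicates, 1 panel per gene with its own axis. The mt-nd6 points at 12 mpf, 313902 to 620569 FPKM, all lie above those at 4 mpf, 93495.7 to 269985 FPKM.

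mt-nd2, mt-nd4 and mt-nd5 encode the large antiporter-like subunits of the proton-pumping arm. mt-nd2 had 822, 748 and 707 FPKM in Tg(myl7:ATF3) hearts at 12 mpf, against 1343, 1082 and 590 FPKM in wild-type hearts. The 4 mpf values were 851, 920 and 614 FPKM in Tg(myl7:ATF3) hearts, against 1122, 1467 and 890 FPKM in wild-type hearts. The groups overlapped at both ages, and the Tg(myl7:ATF3) replicates at 12 mpf were closer together (759 ± 57.9 FPKM) than those of the wild type (1005 ± 383 FPKM; SD, n = 3 each).

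mt-nd5, the distal subunit of the arm, had 379, 427 and 359 FPKM in Tg(myl7:ATF3) hearts at 12 mpf, against 721, 611 and 313 FPKM in wild-type hearts. Its 4 mpf values were 353, 304 and 595 FPKM in Tg(myl7:ATF3) hearts, against 1183, 530 and 839 FPKM in wild-type hearts. In each age 1 library broke the separation: replicate 3 of the wild type was lowest at 12 mpf, and replicate 3 of Tg(myl7:ATF3) exceeded replicate 2 of the wild type at 4 mpf.

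mt-nd4 had 165, 141 and 95.03 FPKM in Tg(myl7:ATF3) hearts at 12 mpf, against 399, 97.3 and 220 FPKM in wild-type hearts. Younger hearts, at 4 mpf, had 493, 249 and 154 FPKM in Tg(myl7:ATF3) fish, against 992, 629 and 483 FPKM in wild-type fish. The Tg(myl7:ATF3) and wild-type values at 4 mpf crossed only at 493 and 483 FPKM. Wild-type libraries at 12 mpf all lay below those at 4 mpf, and in Tg(myl7:ATF3) hearts the ages overlapped.

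mt-nd1, mt-nd3 and mt-nd4l encode subunits at the base of the arm, ND1 being the one that forms most of the ubiquinone channel in mammals. mt-nd1 had 477, 447 and 175 FPKM in Tg(myl7:ATF3) hearts at 12 mpf, against 853, 301 and 355 FPKM in wild-type hearts. At 4 mpf it had 453, 535 and 562 FPKM in Tg(myl7:ATF3) hearts, against 235, 374 and 736 FPKM in wild-type hearts. All 4 groups overlapped, and both the lowest (replicate 3 of Tg(myl7:ATF3)) and the highest library (replicate 1 of the wild type) were of 12 mpf.

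mt-nd3 and mt-nd4l rested on few reads. mt-nd3 had 16, 21 and 15 reads in Tg(myl7:ATF3) hearts at 12 mpf against 11, 14 and 24 in wild-type hearts, and 48, 19 and 0 in Tg(myl7:ATF3) hearts at 4 mpf against 0, 0 and 55 in wild-type hearts. mt-nd4l had 15, 17 and 9 reads in Tg(myl7:ATF3) hearts at 12 mpf against 26, 4 and 15 in wild-type hearts, and 0, 18 and 26 in Tg(myl7:ATF3) hearts at 4 mpf against 33, 55 and 4 in wild-type hearts. A count of 0 allows up to 3 reads, which is 14.96 to 18.7 FPKM for mt-nd3 in its 3 libraries at 0 and 18.5 FPKM for mt-nd4l in its 1. No library of 12 mpf was at 0 for either gene.

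Within the plus-strand reads the shares by gene varied between libraries, with 4.60% to 21.6% for mt-nd1 and 4.96% to 27.5% for mt-nd4. mt-nd5 held 22.6% to 43.2% and mt-nd2 23.5% to 42.5%. Medians over 12 libraries were 34.1% for mt-nd2, 32.8% for mt-nd5, 17.9% for mt-nd1, 13.6% for mt-nd4, 1.47% for mt-nd3 and 1.29% for mt-nd4l. The mt-nd4 share was 8.63% ± 1.14 in Tg(myl7:ATF3) hearts at 12 mpf and 11.2% ± 5.56 in wild-type hearts at 12 mpf (SD, n = 3 each). At 4 mpf it was 15.7% ± 8.34 in Tg(myl7:ATF3) hearts and 22.3% ± 5.35 in wild-type hearts (SD, n = 3 each). Since shares sum to the whole, a higher share of mt-nd4 goes with a lower share of other genes.

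**Figure D3:**
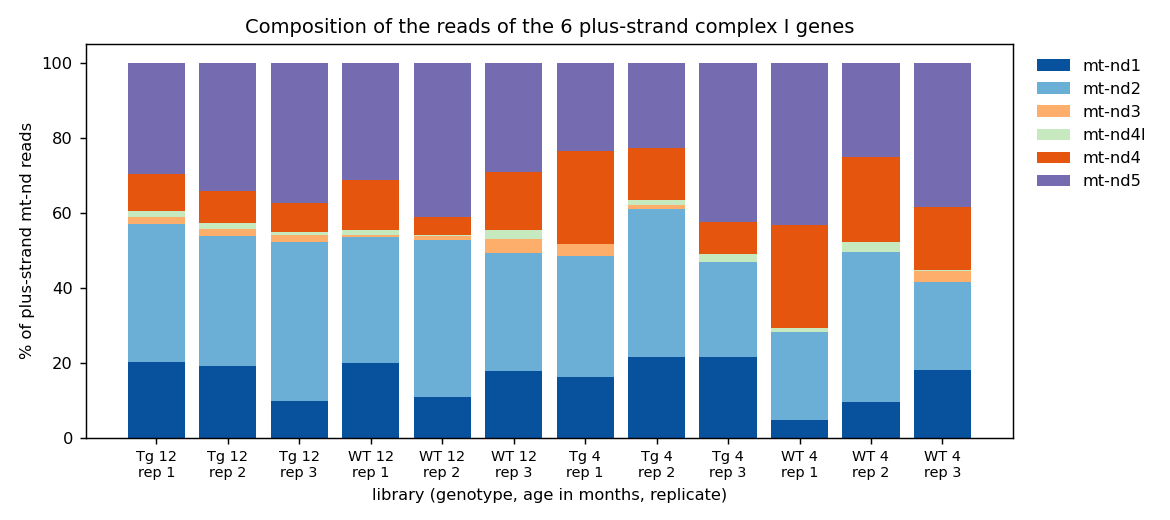
Share of plus-strand complex I reads held by each of the 6 genes in each library (stacked bars, summing to the whole; Tg is Tg(myl7:ATF3), WT wild type). By the median over all 12 libraries, mt-nd2 and mt-nd5 hold the largest shares (34.1% and 32.8%), while mt-nd3 and mt-nd4l are thin slices (1.47% and 1.29%).

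No complex I gene passed the test between genotypes at 4 mpf, where mt-nd4 and mt-nd5 had the lowest adjusted p-values of the set. The mt-nd4 log2 difference (Tg(myl7:ATF3) minus wild type, on the log2(FPKM + 1) scale) was -1.33 (SE 0.57, limma adjusted p = 0.234), and that of mt-nd5 was -1.01 (SE 0.42, adjusted p = 0.221). mt-nd6 had -0.55 (SE 0.40, adjusted p = 0.499) and mt-nd2 -0.54 (SE 0.35, adjusted p = 0.499). mt-nd1 had 0.36 (SE 0.54, adjusted p = 0.778). For mt-nd3 (2.02, SE 2.28) and mt-nd4l (-2.22, SE 1.68) the libraries at 0 set the size, and these fitted differences are no bound. Thus 0 of 7 members were called, against 3.25% of the 400 genes, at an adjusted p of 0.05. Of the 7 differences 5 were below 0, against 43.5% of all genes, and their median was -0.55, against 0.25 over all genes. The median over all genes depended on the genes and libraries used. Over the 121 genes with at least 1 FPKM in all 12 libraries it was -0.02, against -0.55 for the 5 members among them. Without replicate 1 of the wild type at 4 mpf it was -0.03, against -0.74 for the members. Without replicates 1 and 2 it was -0.52, against -0.86. No member separated the genotypes without overlap, against 12% of all genes.

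The summed plus-strand genes separated the genotypes at 4 mpf. Their summed level was 2401, 2193 and 2116 FPKM in Tg(myl7:ATF3) hearts, against 3727, 3335 and 3310 FPKM in wild-type hearts, or 2237 ± 148 and 3457 ± 234 FPKM (SD, n = 3 each). Each Tg(myl7:ATF3) library lay below each wild-type library. Taken singly, 12% of all genes separated the genotypes at 4 mpf, in either direction. Replicate 3 of the wild type, the 4 mpf library with the fewest genes at 0, had 3310 FPKM. Whether the genes at 0 bear on the separation was not tested. Set against the reads outside rRNA and mitochondrial genes, the summed reads were 3.42%, 3.39% and 3.79% in Tg(myl7:ATF3) hearts and 6.97%, 5.04% and 5.44% in wild-type hearts. As a share of all reads outside rRNA the genotypes overlapped, at 1.30% to 2.04% in Tg(myl7:ATF3) hearts and 1.72% to 2.76% in wild-type hearts. The sums are a description, since the genes were chosen with earlier results known, and no test is given for them.

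Tg(myl7:ATF3) libraries at 4 mpf had 64, 81 and 98 genes at 0, and wild-type libraries 193, 134 and 46, with overlap. Of the listed markers of other cell types, 4 hold values, each the only such marker of its list. hemgn, a red-cell lineage gene, had 33.8, 20.5 and 45.8 FPKM in Tg(myl7:ATF3) hearts and 0, 0 and 6.09 FPKM in wild-type hearts. cd22, a B-cell surface receptor gene, had 91.0, 70.3 and 177 FPKM in Tg(myl7:ATF3) hearts and was listed at 0 in all 3 wild-type hearts. cldni, a tight-junction gene of the epithelial list, had 380, 112 and 357 FPKM in Tg(myl7:ATF3) hearts and 41.0, 65.7 and 81.5 FPKM in wild-type hearts. itih2 of the liver list was above 0 in 1 library of each genotype. The limma adjusted p was 0.0285 for hemgn, 0.00308 for cd22 and 0.0752 for cldni. With a fit to 4 mpf alone, array weights or the replicate block within each age, 0 of the 400 genes passed, so the calls of hemgn and cd22 were lost. Their part in the difference of the plus-strand sum was not tested.

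**Figure D4:**
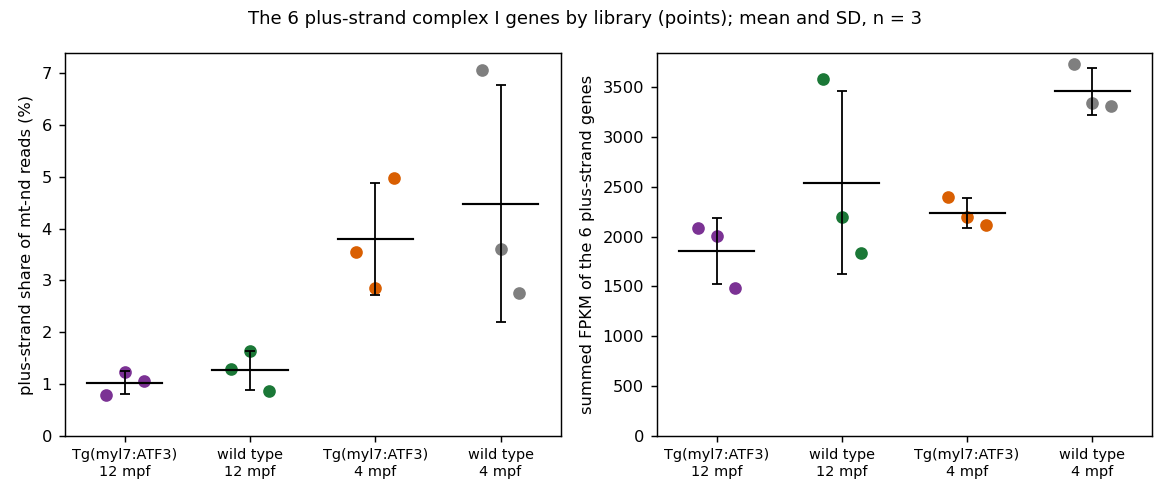
The 6 plus-strand complex I genes by library (points) with the mean and SD of 3 replicates, as a percentage of complex I reads and as summed FPKM. At 4 mpf the summed level was 2116 to 2401 FPKM in Tg(myl7:ATF3) hearts and 3310 to 3727 FPKM in wild-type hearts.

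At 12 mpf no complex I gene passed the test between genotypes. The log2 differences were -0.65 for mt-nd4 (SE 0.57), -0.43 for mt-nd1 (SE 0.54), -0.41 for mt-nd5 (SE 0.42), -0.33 for mt-nd2 (SE 0.35) and -0.15 for mt-nd6 (SE 0.40), each with a limma adjusted p of 0.999. mt-nd3 (-0.01, SE 2.28) and mt-nd4l (0.02, SE 1.68) were close to 0 with wide errors. The fit shares 1 spread over all 4 groups, so each SE equals that at 4 mpf, where some libraries were at 0. It is not the spread at 12 mpf alone. Here 0 of 7 members and 0% of the 400 genes were called. An unadjusted limma p under 0.05 was found for 13 genes, none of them a member. The counts depended on the fit: voom on the recovered reads called 0 genes with 9 unadjusted. A fit to 12 mpf alone called 1 with 50 unadjusted, and array weights called 2 with 54 unadjusted. No member was among any of these. Of the 7 differences 6 were below 0, against 46.5% of all genes, with a median of -0.33 against 0.07 over all genes. No member separated the genotypes, against 20% of all genes.

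The plus-strand sum at 12 mpf was 2083, 2002 and 1479 FPKM in Tg(myl7:ATF3) hearts, against 3580, 2201 and 1836 FPKM in wild-type hearts. The groups overlapped, with replicate 1 of the wild type far above the others. Over both ages mt-nd4 had a genotype difference of -0.99 (SE 0.40, limma adjusted p = 0.352) and mt-nd5 of -0.71 (SE 0.29, adjusted p = 0.352), and 0 of 7 members were called, against 1% of all genes. Whether the genotype difference itself changed with age was tested by the interaction, in which 0 of 7 members were called, against 0.5% of all genes, with the lowest adjusted p at 0.909.

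Between the ages 2 complex I genes differed, in opposite directions. Over both genotypes mt-nd6 averaged 431891 ± 132243 FPKM at 12 mpf and 165081 ± 61938.8 FPKM at 4 mpf (SD, n = 6 each), a log2 difference of 1.41 (SE 0.28, 2.67-fold, limma adjusted p = 0.00885). mt-nd4 averaged 186 ± 114 FPKM at 12 mpf and 500.0 ± 297 FPKM at 4 mpf (SD, n = 6 each), a log2 difference of -1.37 (SE 0.40, limma adjusted p = 0.0482). This comparison over both genotypes was added after values were seen. It called 2 of 7 members, against 12.5% of the 400 genes, of which 40 were higher and 10 lower at 12 mpf; scaled to reads outside rRNA and mitochondrial genes, 15 were higher and 11 lower.

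The 2 calls were unequally firm. mt-nd6 was higher at 12 mpf in all 6 libraries than in any of the 6 at 4 mpf, as were 4.5% of all genes, and it stayed called when any 1 library was left out (adjusted p 0.00519 to 0.0288). mt-nd4 lost its call when any 1 of 9 libraries was left out, with adjusted p up to 0.109, and kept it without replicate 1 of the wild type at 12 mpf, replicate 3 of Tg(myl7:ATF3) at 4 mpf or replicate 3 of the wild type at 4 mpf. Its log2 difference then ranged from -1.61 to -1.10. Without replicates 1 and 2 of the wild type at 4 mpf, the libraries with the most genes at 0, mt-nd6 had 1.16 (adjusted p = 0.0646) and mt-nd4 -1.13 (adjusted p = 0.204).

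The level of the other genes shifted with age as well. The median age difference over the 400 genes was 0.91, and over the 121 genes with at least 1 FPKM in all 12 libraries it was 0.01, where mt-nd6 had an adjusted p of 0.00652 and mt-nd4 of 0.0190. mt-nd6 thus lay 0.50 above the median of the 400 genes and 1.40 above that of the 121; with a pseudocount of 0.1 it lay 0.19 below the median of the 400 genes (-0.19). mt-nd4 lay below the median in each of these, at -2.28, -1.38 and -2.97 relative to it. With libraries scaled to their reads outside rRNA and mitochondrial genes, the median difference was 0.61, that of mt-nd6 1.04 (limma adjusted p = 0.0290) and that of mt-nd4 -1.74 (adjusted p = 0.0189).

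The other members did not pass by age. The log2 differences were -0.34 for mt-nd5 (SE 0.29, limma adjusted p = 0.462), -0.23 for mt-nd1 (SE 0.38, adjusted p = 0.699), -0.15 for mt-nd2 (SE 0.25, adjusted p = 0.692), 0.73 for mt-nd4l (SE 1.19, adjusted p = 0.692) and 2.93 for mt-nd3 (SE 1.61, adjusted p = 0.227). The mt-nd3 value came from its 3 libraries at 0; without replicate 3 of the wild type at 4 mpf, its highest library, it was 4.33 (adjusted p = 0.0340).

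Within Tg(myl7:ATF3) hearts mt-nd6 was 3.07-fold higher at 12 mpf (log2 1.62, SE 0.40, limma adjusted p = 0.0468), the 1 member called of 7, against 3.5% of all genes. That call was lost when any 1 of 10 libraries was left out (adjusted p up to 0.188) and held without replicate 1 or replicate 3 of the wild type at 4 mpf. Within wild-type hearts mt-nd6 had 1.21 (SE 0.40, adjusted p = 0.109) and mt-nd4 -1.71 (SE 0.57, adjusted p = 0.110), and 0 of 7 were called, against 4% of all genes. Without replicate 3 of the wild type at 4 mpf, mt-nd6 passed there (1.47, adjusted p = 0.0379). The mt-nd6 age difference did not differ between genotypes beyond its error (interaction 0.40, SE 0.56, limma adjusted p = 0.918). The ages did not overlap for mt-nd6 in either genotype, nor for mt-nd4 in the wild type, as was so for 33.5% of all genes in Tg(myl7:ATF3) hearts and 24.2% in wild-type hearts.

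**Figure D5:**
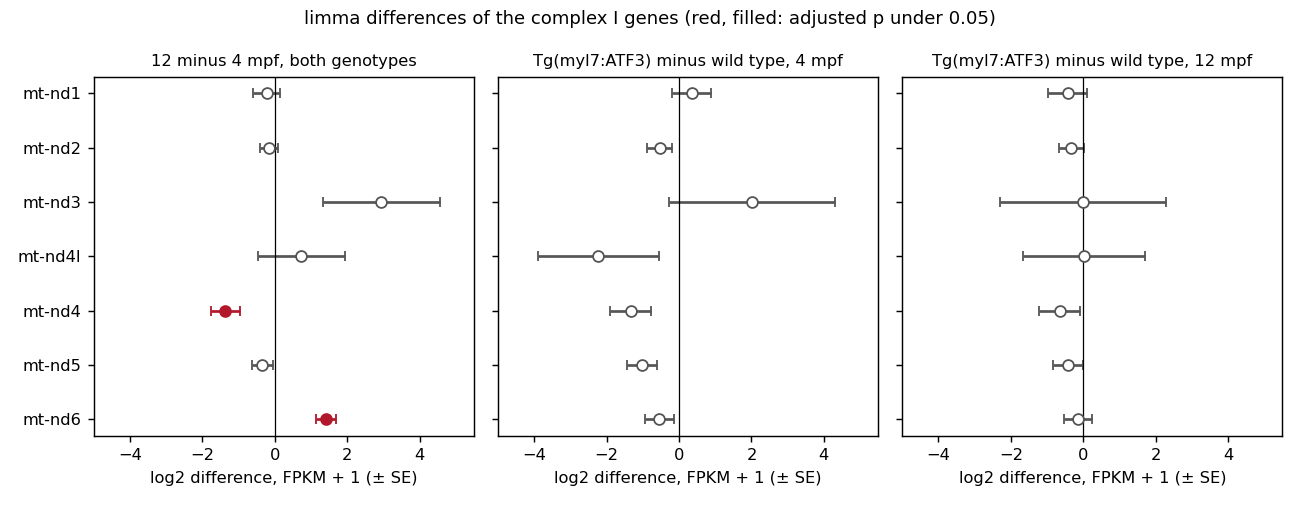
Log2 difference of FPKM + 1 with its SE for each complex I gene, Tg(myl7:ATF3) minus wild type at each age and 12 minus 4 mpf over both genotypes; filled red points have a limma adjusted p under 0.05. mt-nd6 (1.41) and mt-nd4 (-1.37) are the 2 filled points, both in the age comparison.

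The share of reads assigned to mt-nd6 differed by age, and no difference by genotype was detectable. mt-nd6 took 99.2%, 98.8% and 98.9% of complex I reads in Tg(myl7:ATF3) hearts at 12 mpf, against 98.7%, 98.4% and 99.1% in wild-type hearts. At 4 mpf it took 96.4%, 97.1% and 95.02% in Tg(myl7:ATF3) hearts, against 92.9%, 96.4% and 97.2% in wild-type hearts. All libraries of 12 mpf exceeded all of 4 mpf, 98.9% ± 0.307 against 95.9% ± 1.64 (SD, n = 6 each). The difference was 2.99 percentage points (two-sided exact permutation test of 6 against 6 libraries, p = 0.00216, the smallest it can give; adjusted over 9 tests, 0.00974). Between genotypes the exact permutation p was 0.8 at 4 mpf and 0.4 at 12 mpf, where 3 against 3 cannot go below 0.1.

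In reads, mt-nd6 exceeded the plus-strand sum 60.4-fold to 126-fold at 12 mpf and 13.1-fold to 35.3-fold at 4 mpf. The plus-strand genes held 0.570% to 1.05% of the reads outside rRNA at 12 mpf and 1.30% to 2.76% at 4 mpf. Those reads include mt-nd6. Set against the reads outside rRNA and mitochondrial genes, the ages overlapped, at 1.91% to 4.49% at 12 mpf and 3.39% to 6.97% at 4 mpf. The plus-strand sum averaged 2197 ± 722 FPKM at 12 mpf and 2847 ± 691 FPKM at 4 mpf, with overlap (SD, n = 6 each).

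The likeness of mt-nd6 to the plus-strand genes across libraries was uneven, and whether it differed between the ages was not tested. Over 12 libraries its Spearman correlation was 0.0839 with mt-nd1, -0.0490 with mt-nd2, 0.289 with mt-nd3, 0.0699 with mt-nd4l, -0.357 with mt-nd4 and -0.0839 with mt-nd5. Within 12 mpf, over 6 libraries, it was 0.943 with mt-nd1, 0.943 with mt-nd4, 0.886 with mt-nd4l, 0.429 with mt-nd2, 0.314 with mt-nd5 and -0.0857 with mt-nd3. Within 4 mpf it was 0.577 with mt-nd3, 0.429 with mt-nd2, 0.257 with mt-nd1, 0.143 with mt-nd4, and -0.143 with both mt-nd4l and mt-nd5. These are descriptions, and the libraries share depth and rRNA content within an age. Within an age, over 6 libraries, mt-nd6 and the plus-strand sum (log2 FPKM) had Pearson's r = 0.692 at 12 mpf (exact permutation p = 0.133, adjusted over 2 tests 0.267) and 0.495 at 4 mpf (exact permutation p = 0.331, adjusted 0.331). Spearman's rho was 0.6 at 12 mpf (exact permutation p = 0.242, adjusted 0.483) and 0.314 at 4 mpf (exact permutation p = 0.564, adjusted 0.564). Without the 2 libraries farthest from the median of the plus-strand sum within each age, r was -0.260 at 12 mpf and 0.828 at 4 mpf. Without them the 12 mpf value thus changed sign and the 4 mpf value rose, so its size was not stable at either age.

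The genes whose pattern over 12 libraries was most like that of mt-nd6 were map7d3, a microtubule-associated protein gene (Spearman 0.874), zgc:55558 (0.866) and the unnamed loci BX294113.1 (0.860), CU469526.1 (0.858) and CR759841.1 (0.853). The last 3 lie opposite jph1a, atp6v0e1 and appb, so that without a known strand setting their reads cannot be told apart from those of these genes. Within an age the likeness differed by gene: map7d3 had 0.943 at 4 mpf and 0.257 at 12 mpf, and zgc:55558 had 0.0911 at 4 mpf and 0.771 at 12 mpf. BX294113.1 had 0.6 at 4 mpf and 0.771 at 12 mpf, and CU469526.1 had 0.754 at 4 mpf and 0.371 at 12 mpf. CR759841.1 had 0.657 at both ages. Closest to the plus-strand sum were the rRNA locus CT583728.1 (0.790), bmpr1aa, a BMP receptor gene (0.762), asdurf (0.748), mt-co1, a subunit of complex IV (0.741), and the rRNA locus CT583728.11 (0.720). bmpr1aa, asdurf and CT583728.11 likewise lie opposite mmrn2a, zgc:136439 and CT583728.20. None of these 5 was on the list for mt-nd6.

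The other plus-strand mitochondrial protein genes with values, mt-co1, mt-co2, mt-co3, mt-atp6 and mt-cyb, encode subunits of complexes IV, V and III. In each of the 7 comparisons 0 of these 5 passed. Their median genotype difference was -0.82 at 4 mpf and -0.55 at 12 mpf. Complex I genes held 17.7% to 28.6% of plus-strand mitochondrial protein reads at 12 mpf and 7.47% to 28.3% at 4 mpf, without a consistent order of the genotypes. The 2 mitochondrial rRNA genes, also on the plus strand, hold values too. NC_002333.17 had 0 to 23 reads per library (median 9) and NC_002333.4 had 0 to 57 (median 21.5). Whether the strand setting bears on these low counts was not tested.

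Nuclear complex I genes could be followed in 2 cases only. Of 44 listed nuclear subunit genes 38 were in the table and 2, the accessory subunit genes ndufb2 and ndufa3, hold values; neither passed in any comparison. ndufb2 had 130, 224 and 134 FPKM in Tg(myl7:ATF3) hearts at 12 mpf, against 73.3, 88.7 and 57.8 FPKM in wild-type hearts. The groups did not overlap at 12 mpf, as was so for 20% of all genes (log2 difference 1.12, SE 1.99, limma adjusted p = 0.999). At 4 mpf ndufb2 had 146, 0 and 0 FPKM in Tg(myl7:ATF3) hearts and 0, 59.4 and 91.1 FPKM in wild-type hearts. The SE at 12 mpf rests on a spread shared with these 4 mpf libraries. ndufa3 overlapped between genotypes at both ages, with 102 to 212 FPKM in Tg(myl7:ATF3) hearts and 138 to 243 FPKM in wild-type hearts at 12 mpf. The 16 assembly factors and 22 mitochondrial gene expression factors that the table lists carry no value in any library.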

How the data were processed

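RNA of zebrafish cardiac tissue was profiled in 12 libraries, 3 in each of 4 groups set from titles and genotype labels, and 0 value columns were left unmatched. Per the submitters' processing notes, Trim Galore, STAR, RSEM, DESeq2 and the build GRCz11 were used; no source used here gives versions, annotation release or strand setting. The authors deposited FPKM values for genes. Whole reads were recovered from them with library factors solved from 10 mitochondrial genes, whose spans were taken as lengths. For each gene, the smallest whole length up to its span that made all its reads whole within 0.0001 was taken. Such a length was found for 400 of 400 genes. Total depth is not known, since these reads cover only those genes. In each library of 4 mpf the library factor was below the reads in the 400 genes alone. In replicate 1 of the wild type, for example, it was 571327 against 1072432 reads. The deposited FPKM at 4 mpf were therefore not scaled to total reads, and what set their scale was not tested. This touches the age differences in FPKM.

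Deposited FPKM values were put on the log2(FPKM + 1) scale and fitted over 4 groups with limma 3.58.1 (R 4.3.3), on genes with at least 1 FPKM in 3 libraries, with Benjamini-Hochberg adjustment over all 400 and a threshold of 0.05. Shares of reads were compared by exact two-sided permutation tests (scipy 1.17.1). The procedure was tested on simulated data. For limma these had the same spread setting in every gene and library. They did not copy the larger number of genes at 0 at 4 mpf, so the test does not cover that property. Alternatives changed pseudocount, filter, scaling, weights, count test, replicate block and libraries. The members, the lists of other genes and the markers were chosen with earlier results of these data known. Genes named were all members, all listed genes with values, and the 5 genes nearest in Spearman correlation to mt-nd6 and to the plus-strand sum. The age comparison over both genotypes, the runs without replicates 1 and 2 of the wild type at 4 mpf, a replicate block over all groups, the count of genes facing an opposite-strand gene and the summed levels were added after values were seen. Replicates are called biological in the labels; how many hearts each pooled is not said.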

Additional observations from a re-analysis of the deposited data

How the results depend on the processing

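The 0 of 7 calls between genotypes at 4 mpf, at 12 mpf, over both ages and in the interaction stayed 0 under every alternative run. For the age comparisons the number of members called moved. Within the wild type it was 2 with voom on the recovered reads and 0 to 2 when 1 library was left out (2 without replicate 3 of the wild type at 4 mpf). Within Tg(myl7:ATF3) it was 0 with a pseudocount of 5, median-of-ratios scaling, scaling to reads outside rRNA and mitochondrial genes, a fit to 1 genotype alone, array weights or the replicate block over all groups (mt-nd6 adjusted p = 0.104), and 0 to 1 when 1 library was left out. Over both genotypes it was 0 with array weights (mt-nd6 1.28, adjusted p = 0.0585), 0 without replicates 1 and 2 of the wild type at 4 mpf, and 1 to 3 when 1 library was left out.

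Directions reversed only for differences that passed no test. Without replicates 1 and 2 of the wild type at 4 mpf, the genotype difference there was -0.51 for mt-nd1 and -3.57 for mt-nd3, and the age difference of mt-nd2 was 0.023. At 12 mpf the genotype difference of mt-nd3 was 0.13 with array weights and 0.016 with voom, and that of mt-nd4l was -0.00022 with a pseudocount of 5 and -0.076 scaled to reads outside rRNA and mitochondrial genes. Leaving out 1 library moved the genotype difference at 4 mpf over -0.028 to 0.79 for mt-nd1 and -3.65 to 0.15 for mt-nd4l. At 12 mpf it spanned -0.72 to 0.037 for mt-nd1, -0.31 to 0.47 for mt-nd3, -0.84 to 0.54 for mt-nd4l and -0.40 to 0.11 for mt-nd6. For the age difference it spanned -0.46 to 0.0034 for mt-nd1, -0.28 to 0.019 for mt-nd2 and -0.45 to 1.45 for mt-nd4l. The genotype difference at 4 mpf spanned -0.617 to 1.54 percentage points for the mt-nd6 share and -1.94 to 8.49 for the complex I share of plus-strand mitochondrial protein reads. The age difference of the plus-strand share was -1.99 points when set against reads outside rRNA and mitochondrial genes. For all of these the cause was not tested.

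Over all genes the calls were 13 (0 to 37 over the alternatives) between genotypes at 4 mpf, 0 (0 to 2) at 12 mpf, 4 (0 to 14) over both ages, 2 (0 to 15) in the interaction, 16 (1 to 71) by age in the wild type, 14 (0 to 30) by age in Tg(myl7:ATF3) and 50 (18 to 94) by age over both genotypes; the highest counts came without replicate 3 of the wild type at 4 mpf in 5 of these. Samples shared only a replicate number, and same-numbered samples deviated together with r of -0.411 to 0.0725. With the replicate block within each age, 0 genes were called in each of the 4 comparisons that involve genotype. mt-nd3 and mt-nd4l rested on 0 to 55 reads per library, and their replicates varied by up to 7.42 and 4.56 times the counting error.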
